A study of Mus musculus with 10 samples.

Results

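The genes described here encode the enzymes and carriers that take glucose to pyruvate and lactate, bring pyruvate into the mitochondrion and run it through the tricarboxylic acid (TCA) cycle. They were chosen by name, with succinate dehydrogenase left out, and number 39. Of these, 32 have a row among the 21437 genes of the expression table, and 23 reached at least 1 FPKM in at least 2 libraries and were tested together with the other genes that did so, 8726 in all. FPKM, the number of fragments per length of transcript and per number of mapped fragments, is a level relative to all RNA of a library and corrected for transcript length. The genes Hk2, Pfkm, Pgk1, Pgam1, Eno1, Pkm and Slc16a7 were not analysed here. Aldoc, Gapdh, Idh2 and Suclg2 stayed below 1 FPKM in all 10 libraries and are treated as unmeasured. Pfkp, Tpi1, Mpc1, Dlat and Ogdh passed 1 FPKM in a single library each and were not tested.

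The libraries were made from wild type mouse MII oocytes, from 2-cell and 4-cell embryos of the control group, labelled wild type, and from 2-cell and 4-cell embryos labelled Ago2-kd, with 2 libraries in each of the 5 groups. Embryos came from superovulated F1 females, 7 weeks old, mated with F1 males. The Methods name ICR mice as the source of the oocytes, and the labels give ICR for every sample, so stage and strain cannot be told apart between oocytes and embryos. Collection was at 16 h (oocytes), 40 h (2-cell) and 55 h (4-cell) after injection of hCG, the hormone that triggers ovulation. For the knockdown, siRNA against Ago2, which encodes the RNA-cleaving Argonaute protein, was injected into zygotes with an antibody to the AGO2 protein; scrambled siRNA was the negative control, and whether the sequenced controls were injected is not given in the sources used here. Ago2 itself was not analysed here, so the knockdown was not checked in these libraries. The paper reports its efficiency from q-PCR, immunofluorescence and RNA-seq. Both knockdown groups are compared with control libraries that also enter the stage comparisons, so these comparisons are not independent. Nothing states that replicates came from separate matings, and p-values then measure only the spread between these libraries, which may be technical.

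Mouse embryos are known for an unusual fuel economy. Before compaction they live on pyruvate and lactate and use little glucose, and glycolysis rises later, towards the blastocyst. Pyruvate and lactate cross the cell membrane by monocarboxylate carriers, lactate dehydrogenase interconverts them, the pyruvate carrier and the pyruvate dehydrogenase complex turn pyruvate into mitochondrial acetyl-CoA, and the TCA cycle oxidises it. The oocyte supplies most mRNA of the first divisions, and this maternal store is cleared while the embryo's own genome is switched on, in the mouse chiefly at the 2-cell stage. An FPKM measures mRNA only, and nothing on protein or on fuel use was measured.

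By summed levels, the libraries carried the marks of their stages. A list of 10 oocyte genes summed to 22460 to 25510 FPKM in MII oocytes. It summed to 8619 to 9915 in 2-cell controls and 29.6 to 36.4 in 4-cell controls. Btg4 alone made up most of the earlier sums, at 14252 and 15377 FPKM in oocytes and 8212.2 and 7265.5 in 2-cell controls. Bmp15 overlapped between oocytes (605.4 and 448.9) and 2-cell controls (787.2 and 436.1), and Zp1 was at most 0.569 in any library. Of the 9 genes tested, 5 were lower in 2-cell controls than in oocytes and 9 in 4-cell controls (adjusted p under 0.05, limma). The 6 measured genes of the 2-cell burst of transcription summed to 599.5 to 679.4 in 2-cell controls. Their sums were 89.65 to 115.4 in MII oocytes and 78.1 to 298.6 in 4-cell controls. Single genes of the 2-cell list went otherwise. Eif1a was listed at 0 in 2-cell controls and at 62.0 and 47.6 in 4-cell controls. Pramel6 was at 21.2 and 20.9, then 229.3 and 28.1. Tcstv1 was higher in oocytes (71.6 and 81.5) than in 2-cell controls (56.6 and 62.1). Zscan4d was at 51.3 in the first 2-cell control and at 0 in the second. Of 14 cumulus and granulosa markers only 2 have a row, and these summed to at most 1.75 FPKM in any library. FPKM summed to between 178681 and 458874 per library, the highest sums being those of the MII oocytes, and mitochondrial transcripts took 2.02% to 13% of them. Depth is unknown, since FPKM hold no read numbers. The table is built of 18 alphabetical blocks of rows. In blocks 3 to 17, whole libraries are at 0 for at least 99% of the rows, so an entry of 0 there cannot be told apart from a missing one. Of the measured genes this touches Idh3a, whose block of 242 rows is at 0 for 7 libraries, all but those of the MII oocytes and the second 4-cell Ago2 kd library, as well as Mpc1 and Suclg2. Also in the first blocks a 0 may be a failed estimate, and a gene is therefore only said to be listed at 0.

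In MII oocytes the transcripts of these genes were led, by the mean of both libraries, by Ldhb, Mdh1, Fh1, Sucla2 and Dld. The rows of the enzymes from glucose to triose phosphate were below 1 FPKM there, copies of the genes not counted. In 4-cell controls the leading transcripts were Pdhb, Idh3g, Mpc2, Mdh2 and Slc16a1, and Ldhb and Slc2a1 were listed at 0. From oocyte to 2-cell embryo, 1 member rose, Aldoa, which is 4.35% of the 23 tested, where 6.54% of all genes tested rose, and 2 fell, Fh1 and Mdh1, 8.7% of the members against 14.2% of all genes. From 2-cell to 4-cell embryo, 1 member rose, Idh3b (21.1% of all genes rose), and 5 fell, Ldhb, Slc2a1, Dlst, Fh1 and Mdh1, 21.7% against 17.5% of all genes. Over the whole interval from oocyte to 4-cell embryo 6 members rose, Aldoa, Slc16a1, Pdhb, Idh3b, Idh3g and Mdh2, 26.1% against 22% of all genes, and the same 5 members that fell from 2-cell to 4-cell embryo were lower, 21.7% against 26.3%. A rise or fall means an adjusted p under 0.05 in limma, with Benjamini-Hochberg adjustment over all 8726 genes. Shares this near to those of all genes are no result about the members as a group, and the fewer rises at the second step (4.35% of members) were not tested as a group.

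**Figure D1:**
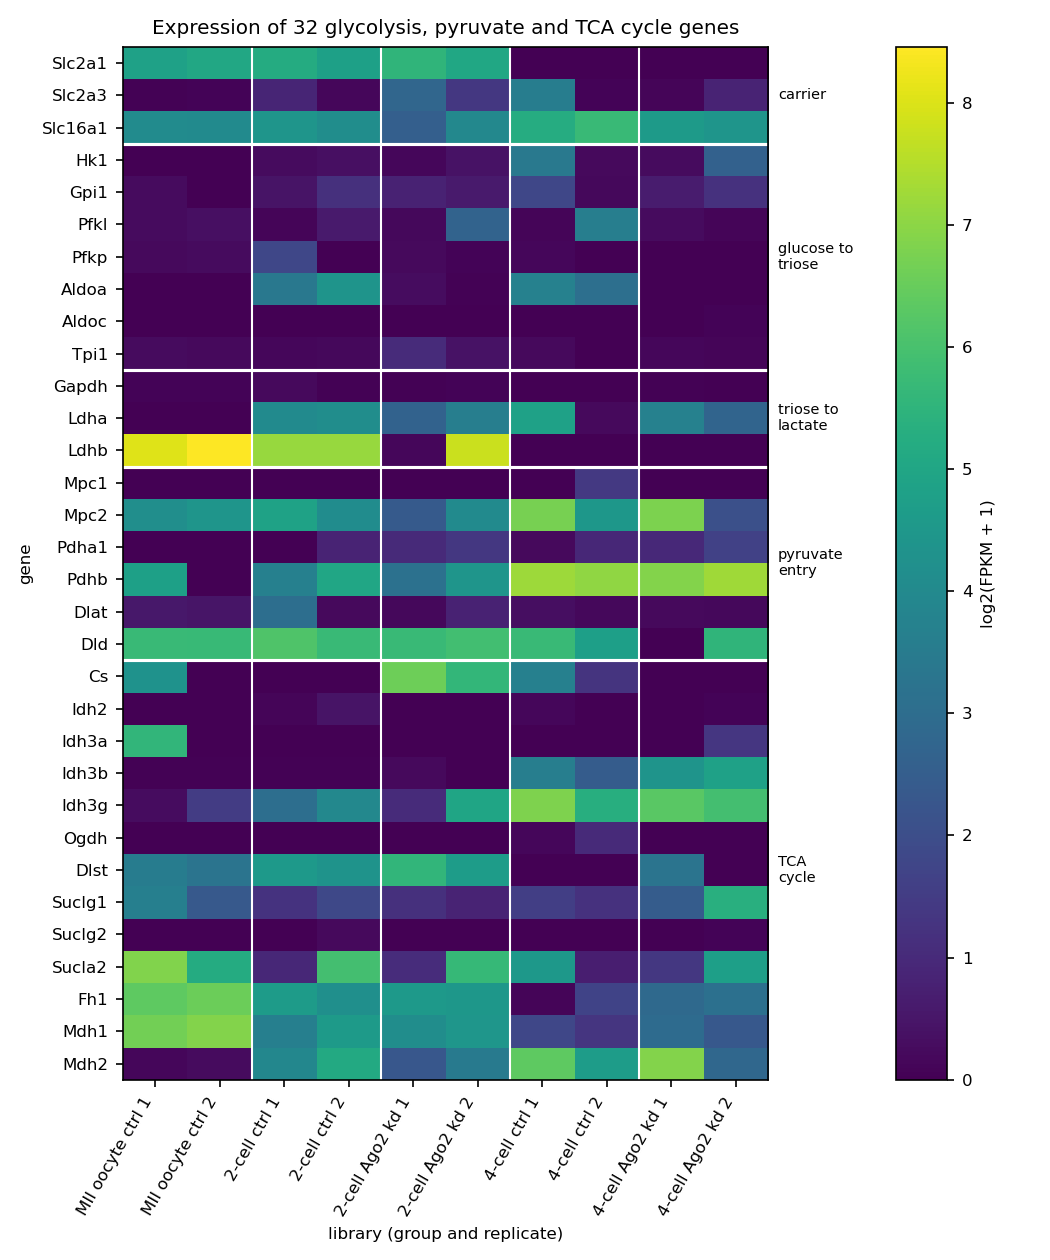
Levels of the 32 genes with a row (vertical axis, grouped by role) in the 10 libraries (horizontal axis), coloured by log2(FPKM + 1). The enzymes from glucose to triose are dark in most libraries. Ldhb and Slc2a1 are bright up to the 2-cell stage, except for Ldhb in the first 2-cell Ago2 kd library (0.110 FPKM), and at 0 in all 4-cell libraries.

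The median log2 difference of the 23 members, on the log2(FPKM + 1) scale, was 0.21 from oocyte to 2-cell embryo, where the median of all genes was -0.06. It was 0.16 from 2-cell to 4-cell embryo, against 0.24 for all genes, and ran from -0.33 to 0.75 when 1 library was left out; it was 0.86 over the whole interval, against 0. The median of all genes moves with the scaling of the libraries, to 0.25, 0.06 and 0.33 when every library is brought to the same FPKM sum. In the deposited scaling, 31.5% of the genes called from oocyte to 2-cell embryo were higher, against 60.3% with equal sums and 48.1% with quantile normalization. Over the whole interval it was 45.5% against 56.2% with equal sums. The falls of members in the first interval depend on this choice, as given below for Fh1 and Mdh1.

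Among the carriers, the glucose transporter gene Slc2a1 (GLUT1) stood at 27.5 and 32.2 FPKM in MII oocytes, 36.2 and 26.8 in 2-cell controls and 45.7 and 31.8 in 2-cell Ago2 kd embryos. It was listed at 0 in all 4 libraries of 4-cell embryos. The fall from 2-cell to 4-cell controls had an adjusted p of 0.000143 and that from oocytes 8.32e-05, and both stayed past the threshold without any 1 of the 10 libraries. Slc2a3 (GLUT3), a transporter of high affinity for glucose, was at 11.1 FPKM in 1 control library of 4-cell embryos and at 0.0627 in the other, so its level at that stage was not settled by these replicates. In 2-cell Ago2 kd embryos Slc2a3 was at 5.93 and 1.58, against 0.846 and 0.103 in their controls, a difference that missed the threshold (unadjusted p = 0.192).

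The monocarboxylate carrier Slc16a1 (MCT1), by which pyruvate and lactate enter cells, was present throughout. It was at 15.8 and 15.6 FPKM in oocytes, 20.0 and 16.6 in 2-cell controls and 37.1 and 52.3 in 4-cell controls. Both 4-cell libraries lay above all oocyte and 2-cell control libraries. The rise from the oocyte was 1.43 log2 units (SE 0.49, adjusted p = 0.0477), and it passed the threshold in 2 of the 10 fits that left out 1 library, with adjusted p between 0.0138 and 0.171. In Ago2 kd embryos Slc16a1 was at 4.94 and 14.3 FPKM at the 2-cell stage and at 23.6 and 20.0 at the 4-cell stage, below both controls each time (groups did not overlap for 29.1% of all genes at the 2-cell and 37% at the 4-cell stage). The log2 differences of -1.01 (SE 0.49) and -0.99 (SE 0.49) missed the threshold, with unadjusted p of 0.0785 and 0.0852.

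The 7 enzymes with a row from glucose to triose phosphate summed to 0.706 and 0.583 FPKM in MII oocytes, 0.000157% and 0.000127% of all FPKM. These sums leave out a pseudogene copy of Gpi1, which was at 6.65 and 5.69 FPKM in the oocytes. The sums were 12.6 and 21.9 in 2-cell controls and 24.8 and 19.0 in 4-cell controls. In Ago2 kd embryos they were 2.42 and 6.83 at the 2-cell stage and 1.09 and 6.64 at the 4-cell stage, below both controls each time. At the 2-cell stage this order rested on Aldoa, at 9.38 and 19.7 in controls and 0.216 and 0.0365 after knockdown. Of the other rows, Pfkl (5.51) and Tpi1 (1.06) were higher in a single Ago2 kd library and Pfkp (2.51) in a single control. For reference, single genes did not overlap between knockdown and control for 29.1% (2-cell) and 37% (4-cell) of all genes tested. Aldoa made up 74.2% and 90% of the sum in 2-cell controls and 48.9% in the first 4-cell control, while Pfkl led in the second with 58.6%. The product of Aldoa, aldolase A, splits fructose bisphosphate into both triose phosphates.

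Aldoa was listed at 0 in both MII oocyte libraries. It stood at 9.38 and 19.7 FPKM in 2-cell controls and at 12.1 and 7.60 in 4-cell controls. The rise to the 2-cell stage had an adjusted p of 0.00144 and that to the 4-cell stage 0.000798, and neither was lost without any 1 library. Aldoa was the only member that passed the test as a rise at the 2-cell stage, and its isozyme Aldoc was listed at 0 in both 2-cell controls. GENCODE M21 holds 2 gene identifiers of the name Aldoa, 1 of them at chr7:126795234-126800751 on the minus strand of GRCm38, and the table has 1 row for the name, so which gene it counts is not given.

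The rows of the other enzymes of the upper pathway were low and uneven. Hexokinase Hk1, which traps glucose as its phosphate, was listed at 0 in oocytes and was above 1 FPKM in 1 control (9.81) and 1 Ago2 kd library (5.12) of 4-cell embryos. The phosphofructokinase gene Pfkl, which commits sugar to glycolysis, was at 11.1 FPKM in the other 4-cell control library, at 5.51 in 1 library of 2-cell Ago2 kd embryos and below 1 in the remaining 8. The row of glucose phosphate isomerase, Gpi1, ranged from 0 to 2.45 FPKM and that of triose phosphate isomerase, Tpi1, from 0 to 1.06. A pseudogene copy of Gpi1 stood at 5.69 to 23.5 FPKM over the libraries, so the Gpi1 row is uncertain on its own. No change of Hk1, Gpi1 or Pfkl passed the test in any comparison (lowest adjusted p of Hk1, 0.214).

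Lower glycolysis could be followed only in part. Gapdh, which makes the first NADH of the pathway, was at or below 0.168 FPKM in all libraries, although it is among the strongly expressed genes of most tissues. Its transcript has 161 near-identical loci in the annotation (at least 90% identity over at least 50% of the transcript), 154 of them pseudogenes. The 118 that have a row summed to 292.6 and 248.3 FPKM in oocytes, 344.4 and 189.8 in 2-cell controls and 23.7 and 48.2 in 4-cell controls. The next lines give 100 coding bases of 3 genes beside their copies, from GENCODE M21 transcripts (GRCm38), with mismatches in capitals, since they show how little sequence separates a gene's row from that of its copy. The Gapdh stretch starts at the initiation codon and is the same in the copy Gm13394, at chr2:28933610-28934609 on the minus strand.
Gapdh: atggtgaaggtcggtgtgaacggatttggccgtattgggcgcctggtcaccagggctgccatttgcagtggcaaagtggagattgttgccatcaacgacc
Gm13394: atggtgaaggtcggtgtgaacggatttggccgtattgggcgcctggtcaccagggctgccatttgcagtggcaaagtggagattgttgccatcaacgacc
Ldhb: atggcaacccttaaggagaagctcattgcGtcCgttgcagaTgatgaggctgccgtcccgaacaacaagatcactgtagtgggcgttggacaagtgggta
Gm5514: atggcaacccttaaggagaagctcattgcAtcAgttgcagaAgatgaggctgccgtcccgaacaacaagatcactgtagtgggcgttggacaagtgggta
Pdhb: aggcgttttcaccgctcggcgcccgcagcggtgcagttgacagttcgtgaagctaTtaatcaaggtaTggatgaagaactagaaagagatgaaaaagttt
Gm6123: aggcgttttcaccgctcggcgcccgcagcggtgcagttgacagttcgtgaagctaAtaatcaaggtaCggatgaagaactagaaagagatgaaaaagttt
The Ldhb stretch, also from the initiation codon, holds 3 mismatches to Gm5514 (chr19:21937380-21938381, plus strand), and the Pdhb stretch holds 2 to Gm6123 (chr1:4771131-4772199, plus strand). Over the whole alignment Gm5514 is 98.0% and Gm6123 97.0% identical to its gene. How the reads of such pairs were divided is not given in the sources used here, and the 2 rows of a pair are uncertain on their own.

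Lactate dehydrogenase interconverts pyruvate and lactate, as a tetramer of the heart-type subunit Ldhb and the muscle-type subunit Ldha. Ldhb was the most abundant member in oocytes, at 262.2 and 349.9 FPKM, and stood at 142.0 and 141.6 in 2-cell controls. It was listed at 0 in all 4-cell libraries. The fall from 2-cell to 4-cell controls had an adjusted p of 0.0331 and that from oocytes 0.0152. These calls were lost without any 1 of the 4 libraries compared, with adjusted p between 0.111 and 0.116 for the former and between 0.0663 and 0.0799 for the latter. In 2-cell Ago2 kd embryos Ldhb was at 0.110 FPKM in 1 library and at 219.4 in the other.

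The copy Gm5514 was high in the same samples and did not show that gap. It stood at 538.9 and 810.2 FPKM in oocytes, at 312.8 and 336.1 in 2-cell controls, and at 373.0 and 448.0 in 2-cell Ago2 kd embryos, including the library where Ldhb was at 0.110. In 4-cell controls Gm5514 was at 9.42 and 3.21. With each gene summed with its copies, an alternative added after seeing the data, Ldhb fell from 2-cell to 4-cell controls by 6.14 log2 units (SE 0.60, adjusted p = 0.00045) and fell by 7.19 from oocytes (SE 0.60, adjusted p = 0.000138). Its difference in 2-cell Ago2 kd embryos was then 0.10 (SE 0.60), against -3.19 (SE 2.08) for the Ldhb row alone. Gapdh summed with its copies fell from 2-cell to 4-cell controls by 2.88 log2 units (SE 0.69, adjusted p = 0.0161). This sum holds loci of unlike identity. Gm13394 (99.9%) was at 141.0 and 101.8 FPKM in 2-cell and 2.44 and 31.6 in 4-cell controls. Gm5177 (90.7%) was at 123.3 and 14.3, then 1.05 and 0. The fall is therefore that of the summed loci and was not assigned to Gapdh itself. Sums of FPKM over rows of different length are only approximate levels.

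**Figure D2:**
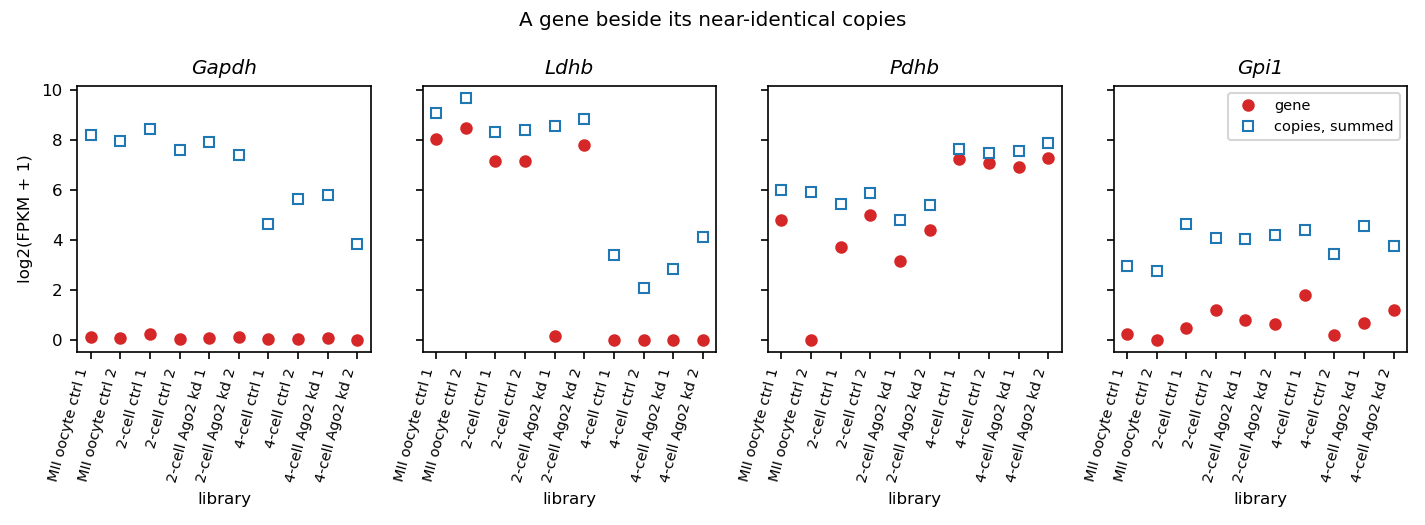
Levels of 4 genes (filled circles) and the summed rows of their near-identical copies (open squares) as log2(FPKM + 1) in each of the 10 libraries. The copies lie above the gene in every library, Gapdh stays at the bottom, and the copy is present in the libraries where Ldhb or Pdhb drops to near 0.

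Ldha was listed at 0 in both oocyte libraries and at 15.7 and 16.5 FPKM in 2-cell controls. In 4-cell controls it was at 27.6 in 1 library and at 0.163 in the other. The difference between oocytes and 2-cell controls had an adjusted p of 0.0756 and thus missed the threshold, although the libraries did not overlap (the groups did not overlap for 62% of all genes tested). Over the alternatives its adjusted p ran from 0.00525 to 0.243, being lowest without a 4-cell control library and highest without an oocyte library. By share, Ldhb made up 100% of the Ldha and Ldhb total in oocytes and 90.1% and 89.6% in 2-cell controls, and Ldha 100% in all 4-cell libraries, though of a total of only 0.163 FPKM in the second 4-cell control. These shares rest on the Ldhb row alone. With each gene summed with its copies, Ldhb exceeded Ldha in the second 4-cell control (3.21 against 0.315 FPKM) and in the second 4-cell Ago2 kd library (16.1 against 6.08), and was below it in the other 4-cell libraries (9.42 against 29.3 and 6.04 against 12.8).

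**Figure D3:**
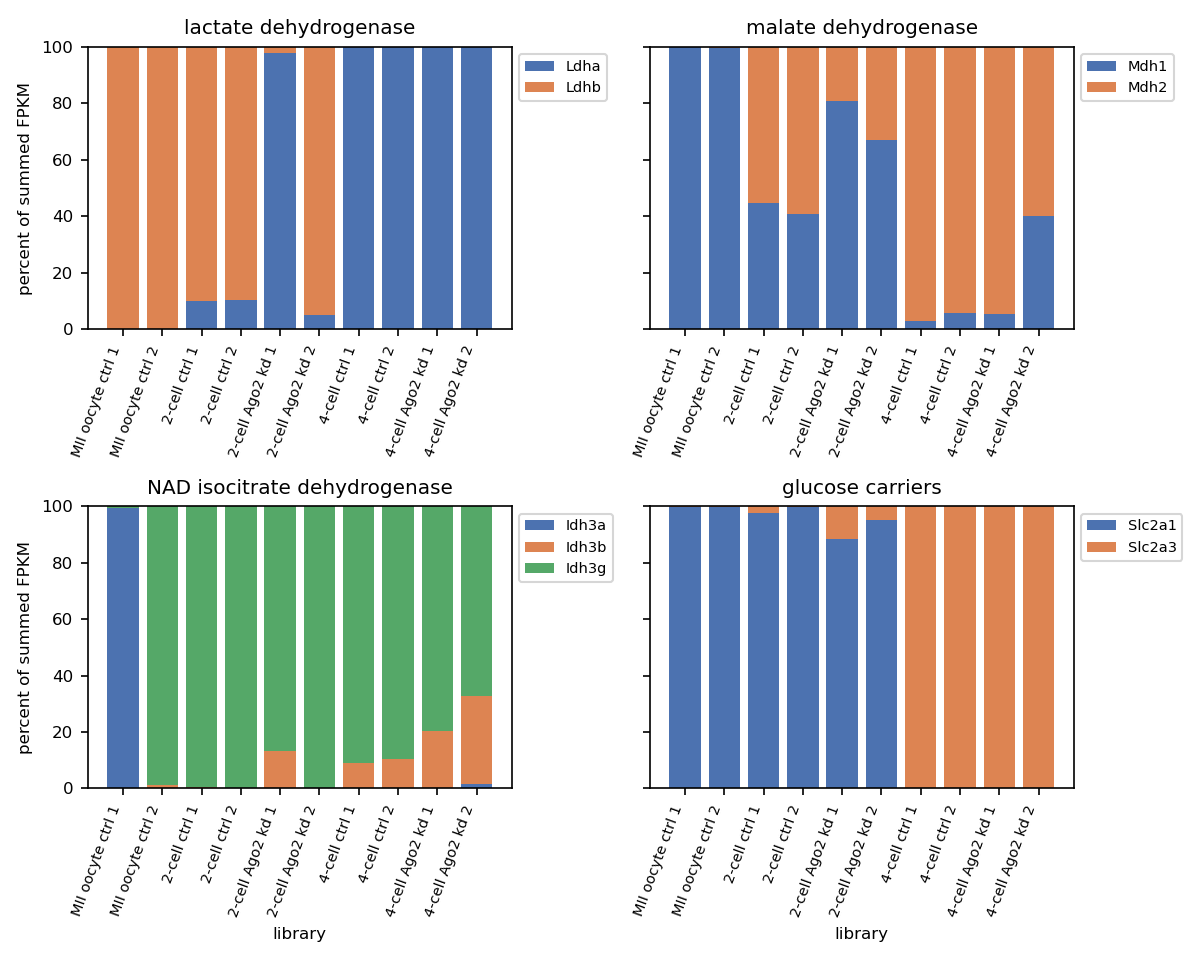
Share of each isozyme or subunit in the summed FPKM of its set (bars, percent) in each of the 10 libraries for lactate dehydrogenase, malate dehydrogenase, NAD-dependent isocitrate dehydrogenase and the glucose carriers. In controls the larger share passes from Mdh1 to Mdh2 between the oocyte and the 4-cell stage, and from the Ldhb row to Ldha, which with copies summed turns to Ldhb in the second 4-cell control (3.21 against 0.315 FPKM); the shares of a set sum to 100% whatever its level.

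Pyruvate enters the mitochondrion through a carrier of the subunits Mpc1 and Mpc2 and is decarboxylated by the pyruvate dehydrogenase complex, whose E1 is made of Pdha1 and Pdhb, whose E2 is Dlat and whose E3 is Dld. The 6 members of this step with a row summed to 96.1 and 71.6 FPKM in oocytes, 115.8 and 100.4 in 2-cell controls and 305.7 and 183.5 in 4-cell controls. Pdhb, the beta subunit of E1, accounted for 48.3% and 72.6% of the 4-cell sums. It was at 26.9 and 0 FPKM in oocytes, 11.9 and 30.7 in 2-cell controls, and 147.8 and 133.1 in 4-cell controls. The rise from oocyte to 4-cell embryo was 4.74 log2 units (SE 1.41, adjusted p = 0.0288) and rested in part on the oocyte library at 0, without which it was 2.34. The call was lost without that library and also without either 4-cell control library. In that oocyte library the copy Gm6123 was at 59.0 FPKM, against 61.9 in the other. Summed with this copy, Pdhb rose from the oocyte by 2.16 log2 units (SE 0.40, adjusted p = 0.00407) and from the 2-cell stage by 2.22 (SE 0.40, adjusted p = 0.0053).

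The partners of Pdhb did not follow it. The alpha subunit Pdha1, on the X chromosome, was between 0 and 2.09 FPKM in all libraries, and the E2 subunit Dlat was above 1 FPKM only in 1 control library of 2-cell embryos, at 7.35. The E3 subunit Dld, which several dehydrogenase complexes share, was steady in oocytes (51.8 and 50.8) and 2-cell controls (68.5 and 52.5) and at 52.7 and 26.4 in 4-cell controls. It was listed at 0 in 1 library of 4-cell Ago2 kd embryos and at 45.6 in the other. Mpc2 was at 17.0 and 20.4 FPKM in oocytes and at 104.8 and 21.3 in 4-cell controls, so the 4-cell libraries disagreed by more than their distance to the other stages. No change of Pdha1, Dld or Mpc2 passed the test in any comparison (lowest adjusted p of Pdha1, 0.286), and Dlat was not tested.

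Within the TCA cycle, single genes changed in both directions. Its 13 members with a row summed to 382.6 and 261.3 FPKM in oocytes, 82.1 and 171.8 in 2-cell controls and 242.0 and 75.6 in 4-cell controls. Both oocyte sums lay above those of the control embryos, whose stages overlapped. As shares of all FPKM the sums were 0.085% and 0.0569% in oocytes, 0.0418% and 0.0844% in 2-cell controls and 0.0901% and 0.0313% in 4-cell controls, so all stages overlapped. The sums were not tested. Fumarate hydratase, Fh1, and the cytosolic malate dehydrogenase, Mdh1, which serves the malate-aspartate shuttle, fell in steps. Fh1 was at 80.5 and 93.5 FPKM in oocytes, 24.2 and 17.7 in 2-cell controls and 0.0821 and 2.25 in 4-cell controls. Mdh1 was at 98.9 and 117.4, then 11.5 and 23.3, then 2.46 and 1.48 FPKM. For each gene the 3 stages did not overlap, as was so for 62%, 68.6% and 76.2% of all genes from oocyte to 2-cell, 2-cell to 4-cell and oocyte to 4-cell.

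Mdh1 changed by -2.65 log2 units to the 2-cell stage (SE 0.46, adjusted p = 0.00748) and by -2.57 from there to the 4-cell stage (SE 0.46, adjusted p = 0.00513), and both calls held without any 1 library. With libraries scaled to equal FPKM sums the first change of Mdh1 was -1.49 (adjusted p = 0.082), and with quantile normalization -1.63 (adjusted p = 0.0914), so it passed only in part of the scalings. Fh1 fell by 2.02 log2 units to the 2-cell stage (SE 0.54, adjusted p = 0.0394), which no longer passed without any 1 of the 4 libraries compared (adjusted p between 0.0892 and 0.164) or with equal FPKM sums (-0.86, adjusted p = 0.381). Its second change, by -3.53 units (SE 0.54, adjusted p = 0.00276), held without any 1 library and in each scaling.

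Mdh2, the mitochondrial malate dehydrogenase of the cycle proper, went the other way. It was at 0.114 and 0.188 FPKM in oocytes, 14.2 and 33.8 in 2-cell controls and 80.1 and 24.5 in 4-cell controls. The rise from oocyte to 4-cell embryo was 5.31 log2 units (SE 1.30, adjusted p = 0.0137). It did not pass without either oocyte library or without the first 4-cell control library (highest adjusted p, 0.0814), and the rise to the 2-cell stage, by 4.32 (SE 1.30), had an adjusted p of 0.0588. Mdh1 thereby went from 99.9% and 99.8% of both malate dehydrogenases in oocytes to 44.6% and 40.8% in 2-cell controls and 2.98% and 5.69% in 4-cell controls.

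Isocitrate dehydrogenase of the NAD-dependent kind, a rate-setting enzyme of the cycle, is built from an alpha subunit (Idh3a) and the subunits Idh3b and Idh3g. Idh3b was between 0.0253 and 0.0356 FPKM in oocytes and 2-cell controls and at 11.2 and 4.56 in 4-cell controls. Its rise from 2-cell to 4-cell embryo was 2.998 log2 units (SE 0.45, adjusted p = 0.00254) and held without any 1 library. Idh3g, on the X chromosome, was at 0.209 and 1.86 FPKM in oocytes, 7.30 and 14.5 in 2-cell controls and 112.5 and 38.3 in 4-cell controls, a rise of 5.17 (SE 1.25, adjusted p = 0.0126) over the whole interval. This call was lost without the first oocyte library and also without the first 4-cell control library. With 1 library left out the rise ran from 4.40 to 5.93. The catalytic alpha subunit Idh3a was at 46.7 FPKM in 1 oocyte library and listed at 0 in 8 of the 10 libraries, of which 7 are the libraries at 0 throughout its block of rows.

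Dlst, the E2 subunit of the oxoglutarate dehydrogenase complex, was at 10.7 and 8.57 FPKM in oocytes and 22.5 and 19.5 in 2-cell controls, and was listed at 0 in both 4-cell controls (adjusted p against 2-cell controls 0.0111, against oocytes 0.0242). The fall from the 2-cell stage was past the threshold in 1 of the 4 fits without a library of the groups compared, the adjusted p lying between 0.0473 and 0.0566, and that from the oocyte in none of 4 (0.0874 to 0.11). Its E1 partner Ogdh was at or below 1.03 FPKM in all libraries. Citrate synthase, Cs, which opens the cycle, was at 18.9 and 0 FPKM in oocytes, listed at 0 in both 2-cell controls, and at 11.8 and 1.42 in 4-cell controls. The succinate-CoA ligase subunits Sucla2 and Suclg1 were present at each stage, Sucla2 with 0.932 and 60.005 FPKM in the 2-cell controls. Suclg1, the alpha subunit, was at 11.7 and 4.16 FPKM in oocytes and between 1.31 and 2.56 in control embryos. No control stage difference of Cs, Sucla2 or Suclg1 passed the test.

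**Figure D4:**
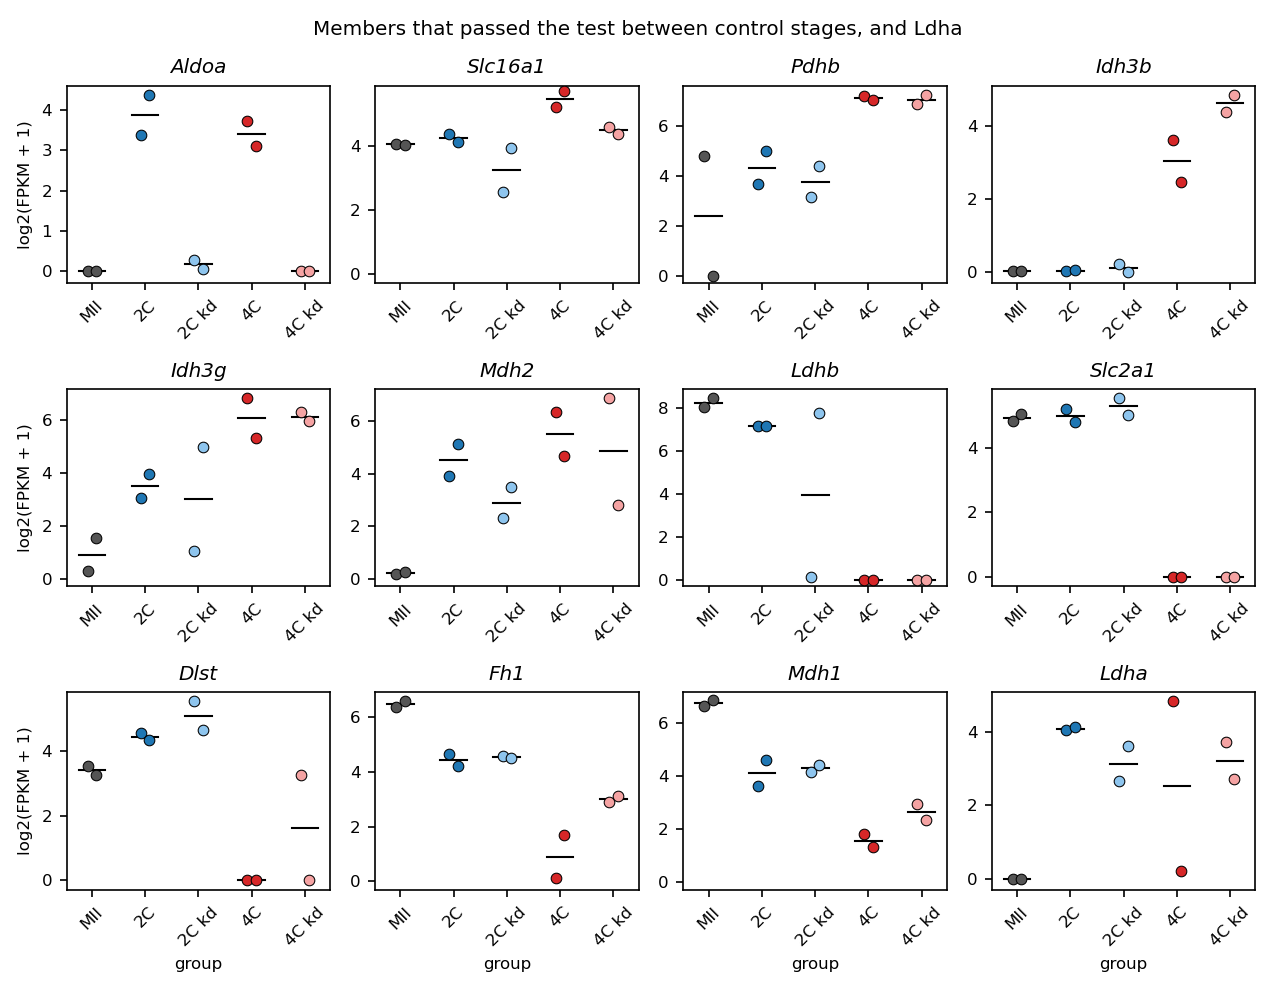
Levels, as log2(FPKM + 1), of the 11 genes that passed the test between control stages and of Ldha, in MII oocytes (MII), 2-cell (2C) and 4-cell (4C) controls and Ago2 kd embryos (kd); each point is a library and each bar the mean of 2. Fh1 and Mdh1 step down, Idh3b is near 0 until the 4-cell stage, and Aldoa is high in both control embryo groups and near 0 in both Ago2 kd groups.

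Printed promoters, from RefSeq (GRCm38.p6), show the windows of 250 bases before the annotated start for malate dehydrogenase genes that moved in opposite directions, for Idh3b, which rose at the 4-cell stage, and for Slc2a1, which was listed at 0 there. Capitals mark the motifs searched on both strands: the HIF core ACGTG, the GC box GGGCGG, the CCAAT box CCAAT and the TATA box TATAAA. Windows are Mdh1 at chr11:21571935-21572184 (minus strand), Mdh2 at chr5:135778399-135778648 (plus), Idh3b at chr2:130284452-130284701 (minus) and Slc2a1 at chr4:119108495-119108744 (plus).
Mdh1: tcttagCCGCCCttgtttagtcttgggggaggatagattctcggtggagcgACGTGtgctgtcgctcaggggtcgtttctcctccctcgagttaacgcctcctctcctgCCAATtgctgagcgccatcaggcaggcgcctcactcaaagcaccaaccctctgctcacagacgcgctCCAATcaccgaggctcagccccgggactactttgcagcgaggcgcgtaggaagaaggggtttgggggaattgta
Mdh2: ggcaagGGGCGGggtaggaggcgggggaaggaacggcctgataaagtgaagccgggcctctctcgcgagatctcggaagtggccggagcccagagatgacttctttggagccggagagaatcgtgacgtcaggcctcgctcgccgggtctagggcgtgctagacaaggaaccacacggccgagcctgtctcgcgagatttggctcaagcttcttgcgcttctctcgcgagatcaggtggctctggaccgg
Idh3b: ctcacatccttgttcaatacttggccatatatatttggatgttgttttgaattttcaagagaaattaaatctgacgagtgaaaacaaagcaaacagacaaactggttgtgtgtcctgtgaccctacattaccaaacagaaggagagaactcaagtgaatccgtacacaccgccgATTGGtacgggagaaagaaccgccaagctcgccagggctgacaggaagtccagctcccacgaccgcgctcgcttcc
Slc2a1: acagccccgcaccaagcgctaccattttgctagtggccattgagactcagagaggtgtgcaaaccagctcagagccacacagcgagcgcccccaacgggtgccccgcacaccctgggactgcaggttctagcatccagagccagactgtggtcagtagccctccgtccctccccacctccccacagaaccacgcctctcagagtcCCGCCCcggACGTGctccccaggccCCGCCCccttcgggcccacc
Over the 53 windows of the 36 members that matched, the median was 15 CpG sites and 61.2% G and C, against 6 and 52.4% for all 32851 windows. A HIF core was in 20 of the 53 windows and in 16.6% of all windows, a GC box in 29 (32.7% of all), a CCAAT box in 23 (33.9%) and a TATA box in 0 (12.4%). Some genes have several windows that overlap, as Ogdh does, so the same motif can be counted repeatedly. By gene, a HIF core was in a window of 13 of the 36 members, a GC box of 25 and a CCAAT box of 18. A count by gene was not made for all windows. A match is a string of letters, not a site shown to be used. Of the 4 windows printed, those of Mdh1, Slc2a1 and Mdh2 hold a GC box and that of Idh3b does not, and those of Mdh1 and Slc2a1 hold a HIF core and the others do not. These genes were chosen for their changes, and motifs were not compared with direction over all members.

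In 2-cell embryos, Aldoa was the 1 member that passed the test after Ago2 knockdown. Its levels were 0.216 and 0.0365 FPKM after knockdown and 9.38 and 19.7 in controls, a change of -3.71 on the log2(FPKM + 1) scale (SE 0.43, adjusted p = 0.0221). It is 4.35% of the members tested, where 0.218% of all genes were lower, and no member was higher (0.332% of all genes). At an unadjusted p of 0.05 the same member was lower (3% of all genes) and Cs was higher (2.96%). The adjusted p of Aldoa was 0.0554 and 0.0624 without either 2-cell Ago2 kd library, 0.0502 without the second 4-cell Ago2 kd library, 0.069 with a replicate block and 0.377 when the 4 libraries were fitted alone. In the fit of these 4 libraries alone no gene of the 8726 passed.

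In 4-cell embryos Aldoa was again lower, listed at 0 in both Ago2 kd libraries against 12.1 and 7.60 FPKM in controls (adjusted p = 0.00698). It is 4.35% of the members, where 2.77% of all genes were lower, and no member was higher (1.23% of all genes). This call held without any 1 of the 10 libraries (adjusted p between 0.00543 and 0.0287) and was lost when the 4 libraries were fitted alone (0.252). The 5 loci near-identical to Aldoa summed, over 4 rows, to at most 0.30 FPKM in any library, and with them Aldoa had adjusted p of 0.0285 at the 2-cell and 0.00978 at the 4-cell stage. At both stages the knockdown libraries were at the level of the oocytes, where Aldoa was listed at 0. The summed level of the 2-cell burst genes was 329.7 to 465.8 FPKM in 2-cell Ago2 kd embryos, below the 599.5 to 679.4 of their controls. In 4-cell Ago2 kd embryos it was 137.2 to 254.4 FPKM, within the 78.1 to 298.6 of their controls, so it was not lower at that stage. Single genes of this sum did not move alike at the 2-cell stage. Tcstv3 was lower, against 273.2 and 306.0 in controls, but held the same value, 134.1, in both Ago2 kd libraries, so its replicate spread there is void. Pramel6 was lower too (8.22 and 12.5 against 21.2 and 20.9). Tcstv1 was higher (90.9 and 69.5 against 56.6 and 62.1), and the libraries of Zfp352 overlapped. The part of this sum in the Aldoa result was not tested.

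**Figure D5:**
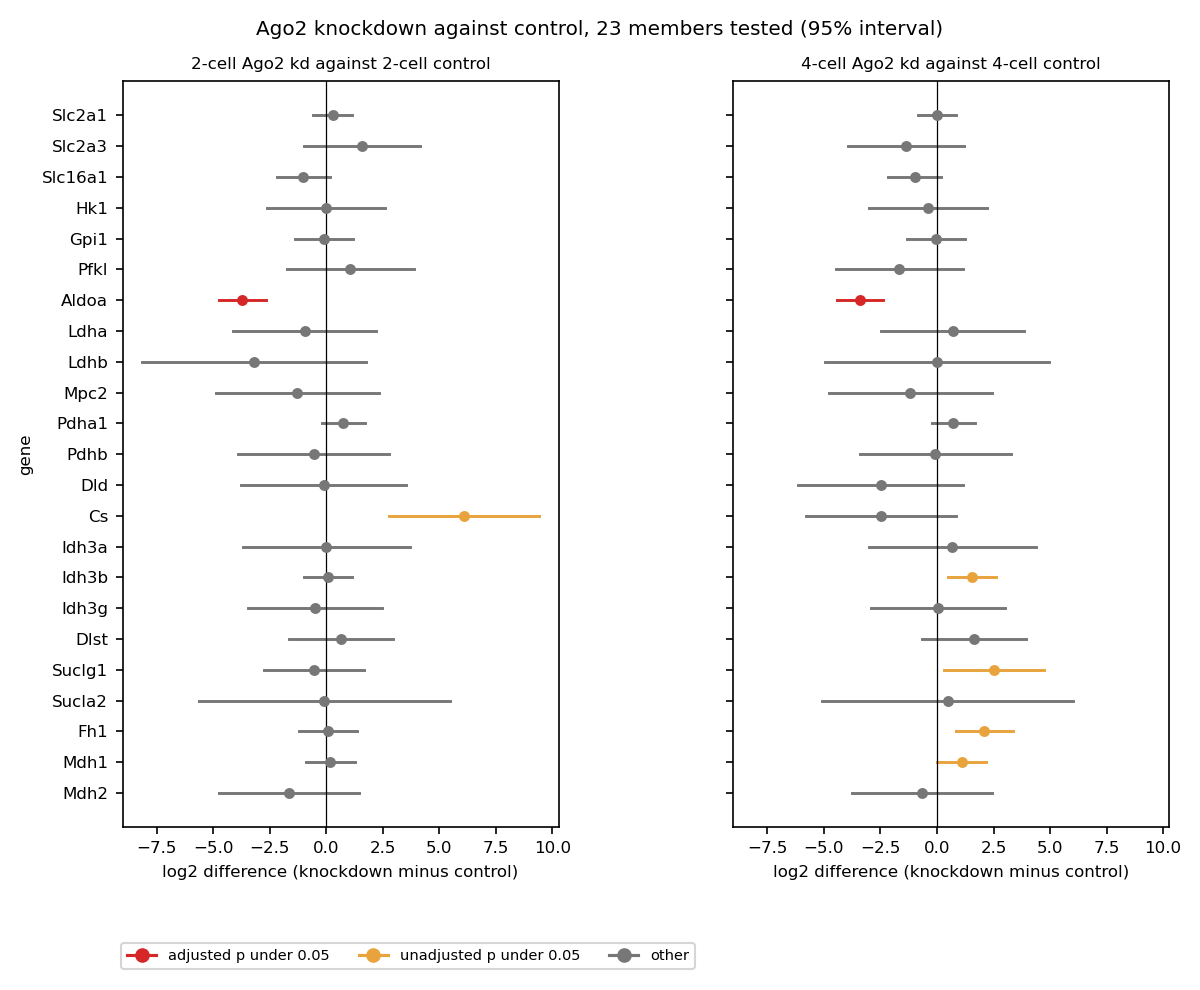
Log2 difference between Ago2 kd and control embryos (horizontal axis, log2(FPKM + 1) units, point with 95% interval from limma) for the 23 members tested (vertical axis) at the 2-cell (left) and 4-cell stage (right). Aldoa alone passed the adjusted threshold at either stage, and 42 of the 46 intervals span more than 2 log2 units.

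In 4-cell Ago2 kd embryos 4 members were higher at an unadjusted p under 0.05, and none of them passed after adjustment. These were Idh3b, Suclg1, Fh1 and Mdh1, all enzymes in or beside the TCA cycle, 17.4% of the members where 7.37% of all genes were higher by that measure; Aldoa was the 1 member that was lower (8.07% of all genes). Fh1 was at 6.36 and 7.75 FPKM against 0.0821 and 2.25 in controls, a difference of 2.098 (SE 0.54, unadjusted p = 0.00619, adjusted p = 0.101). Mdh1 was at 6.75 and 4.06 against 2.46 and 1.48, a difference of 1.10 (SE 0.46, unadjusted p = 0.0477, adjusted p = 0.316). Both genes were thus between their 2-cell and 4-cell control levels, and the groups did not overlap. For reference, knockdown and control groups did not overlap for 37% of all genes tested at this stage.

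Idh3b, a gene that rose at the 4-cell stage, was at 19.7 and 27.7 FPKM in Ago2 kd against 11.2 and 4.56 in control embryos, a difference of 1.56 (SE 0.45, unadjusted p = 0.0105, adjusted p = 0.141). Suclg1 was at 4.45 and 38.96 against 1.93 and 1.31, a difference of 2.50 (SE 0.93, unadjusted p = 0.0316, adjusted p = 0.257), and without the Ago2 kd library at 38.96 it was 1.06. With 1 library left out, single members of this group passed the adjusted threshold, namely Fh1 without the second 4-cell control (adjusted p = 0.0148), Idh3b without the first (0.0401) and Suclg1 without the first Ago2 kd library (0.0299). The oocyte genes listed above summed to 51.4 to 72.4 FPKM in 4-cell Ago2 kd embryos, above the 29.6 to 36.4 of their controls. Single genes of this sum did not move alike. Mos, Oosp1 and Btg4 were higher in both Ago2 kd libraries, while Gdf9 and Nlrp5 overlapped. Zp3 was at 23.5 FPKM in the first Ago2 kd library and listed at 0 in the second and in both controls. No gene of the list passed after adjustment. The part of this sum in the levels of Fh1 and Mdh1 was not tested.

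Citrate synthase showed the widest gap in 2-cell embryos. Cs was at 94.3 and 47.5 FPKM in both 2-cell Ago2 kd libraries and was listed at 0 in both controls (unadjusted p = 0.00342, adjusted p = 0.219). In 4-cell embryos the order was the reverse, with Cs listed at 0 in both Ago2 kd libraries and at 11.8 and 1.42 FPKM in controls (unadjusted p = 0.119). Within the MII oocytes alone Cs was at 18.9 in 1 library and at 0 in the other, so a library at 0 beside a library well above it also occurred within a group. The difference between the knockdown effects of both stages passed the adjusted threshold for no member (0.642% of all genes higher, 1.64% lower). At an unadjusted p of 0.05 Fh1 was higher (6.27% of all genes) and Cs lower (7.11%).

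The remaining members gave no call in either knockdown comparison, and their intervals are wide. The median log2 difference of the 23 members was -0.08 at the 2-cell and 0 at the 4-cell stage, with 0 for all genes at both. The 95% interval of Mdh2 ran from -4.72 to 1.46 at the 2-cell stage, that of Pdhb from -3.90 to 2.79 and that of Ldhb from -8.13 to 1.75, so changes of several log2 units were not detectable for these genes. Slc2a1 was better determined, from -0.58 to 1.14.

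The width of these intervals comes with disagreement between replicates. In 10 of 64 cases in which a member exceeded 10 FPKM in 1 library of a group, the other library was below 1 FPKM, 15.6% against 14.2% for all genes. These were Pdhb, Cs and Idh3a in oocytes, Sucla2 in 2-cell controls, Ldhb in 2-cell Ago2 kd embryos, Pfkl, Ldha, Slc2a3 and Sucla2 in 4-cell controls, and Dld in 4-cell Ago2 kd embryos. For all genes the share was highest in 4-cell Ago2 kd embryos, at 21.4%, and lowest in oocytes, at 9.87%.

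Genes around these pathways were taken from lists of further isozymes, regulators, side enzymes of the cycle and the pentose phosphate pathway. Of 29 further isozymes 6 were tested, and Pdha2, the testis form of the E1 alpha subunit, and Ldhd, the D-lactate dehydrogenase, fell from oocyte to 2-cell embryo. Pdha2 was at 6.63 and 5.46 FPKM in oocytes and 0.170 and 1.65 in 2-cell controls (adjusted p = 0.0129), and Ldhd at 2.70 and 2.27 and then 0.114 and 0 (adjusted p = 0.035). Of 18 regulators 9 were tested; from 2-cell to 4-cell embryo Pdp1, a phosphatase that activates pyruvate dehydrogenase, Pfkfb1, which sets the level of fructose 2,6-bisphosphate, and Hif1a, a transcription factor of the glycolytic genes, fell, and Fbp2, a fructose bisphosphatase, rose. Hif1a was at 154.6 and 183.1 FPKM in oocytes, 44.0 and 35.9 in 2-cell controls and 1.36 and 0.230 in 4-cell controls (adjusted p from the 2-cell stage 0.0321), and Pdp1 at 57.0 and 64.8, then 25.96 and 18.9, then 0 and 0.898 (adjusted p = 0.000566). Tigar, a bisphosphatase that diverts sugar from glycolysis, was listed at 0 in oocytes and at 185.3 and 188.9 FPKM in 4-cell controls (adjusted p = 0.0253).

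Of 24 other TCA and side enzymes 10 were tested, and from 2-cell to 4-cell embryo Slc25a13, the aspartate-glutamate carrier of the malate-aspartate shuttle, fell. Slc25a13 was at 5.03 and 1.60 FPKM in 2-cell and listed at 0 in both 4-cell controls (adjusted p = 0.00992). In the pentose phosphate pathway, which draws on glucose 6-phosphate, 8 of 11 genes were tested. G6pdx, its entry enzyme, was at 14.05 and 14.4 FPKM in oocytes, 69.7 and 69.8 in 2-cell controls and 0.467 and 0.719 in 4-cell controls, a rise of 2.22 log2 units (SE 0.34, adjusted p = 0.00511) and then a change of -5.48 (SE 0.34, adjusted p = 8.69e-05). G6pdx belongs to a last block of 196 rows in which both 2-cell Ago2 kd libraries hold identical values (193 above 0), so their replicate spread is void there. The fit takes its spread from all 5 groups, so this void spread also enters the SE and adjusted p of G6pdx above, which are therefore uncertain. No member lies in this block. Taldo1 went down and then up, and Tkt and Prps1 rose at the 4-cell stage, Prps1 from at most 0.134 to 1333 and 926.5 FPKM (adjusted p = 0.00133). No gene of these lists passed after adjustment in either knockdown comparison.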

How the data were processed

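FPKM were measured by RNA sequencing of lysed MII oocytes and embryos, 2 libraries in each of 5 groups. The deposited FPKM were made by the authors, who trimmed reads, aligned them to mm10 (GRCm38) with HISAT2 2.1.0 and quantified with StringTie (version not given in the sources used here); the submitters' processing notes also name CASAVA 1.4. Replicates were not pooled. No read numbers are held in FPKM, so depth is unknown and precision rests on the replicates alone.

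FPKM were used as deposited, as log2(FPKM + 1). Genes at 1 FPKM or more in at least 2 of 10 libraries were fitted together in limma 3.58.1 (R 4.3.3), with all 5 groups in 1 model (5 residual and 1.886 prior degrees of freedom, trended variance, two-sided moderated test, Benjamini-Hochberg adjustment, threshold 0.05). Every p and adjusted p given comes from this limma model or an alternative of it. Fold changes on this scale understate changes of low genes. An exact permutation test of 2 against 2 libraries cannot go below 0.333 and was not used. The script was tested on simulated data with normally distributed noise. These lacked the block structure and the replicate disagreement of the deposited values, so that test does not cover such features. Rows were matched by name to GENCODE M21 (20460 of 21437), copies were found with blastn 2.17.0, promoters came from RefSeq GRCm38.p6, and tables and plots were made with pandas 2.3.3 and matplotlib 3.10.9. Samples were grouped by their titles. A result for 1 gene of the further lists is not reported here. The members and lists were chosen with earlier results of these data known. Every member with a row was named; full statistics were given for members past the threshold, at most 10 per comparison, and for knockdown also for those at an unadjusted p under 0.05. Alternatives were another pseudocount (0.1), no filter, 3 scalings, a replicate block, the compared groups alone, an unadjusted threshold and each library left out; 3 more were added after seeing the data (without the last block of rows, the first 2 blocks alone, and members summed with their copies).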

Additional observations from a re-analysis of the deposited data

Results flagged for a closer look

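For 2 members the Ago2 kd effect differed between the stages at an unadjusted p under 0.05 in the interaction term of the limma model, and neither passed after adjustment. For Cs the effect at the 4-cell stage minus that at the 2-cell stage was -8.57 on the log2(FPKM + 1) scale (unadjusted p = 0.00351, adjusted p = 0.0947). This value is no fold change, since Cs was listed at 0 in both 2-cell controls and both 4-cell Ago2 kd libraries. For Fh1 it was 2.00 (unadjusted p = 0.0347, adjusted p = 0.319), with 23.03 and 21.3 FPKM after knockdown against 24.2 and 17.7 in controls at the 2-cell stage, and 6.36 and 7.75 against 0.0821 and 2.25 at the 4-cell stage. The adjusted p of Fh1 was 0.0492 without the second 4-cell control library, and that of Cs was 0.0322 or 0.0325 without either oocyte library. With 2 libraries a group, no group was large enough for a check of single outlying samples.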

How the results depend on the processing

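No member that passed a threshold in a comparison changed direction there under the alternatives. Members that had not passed did so when summed with their copies, namely Ldhb in 2-cell Ago2 kd embryos (-3.19 to 0.10), Pdhb from oocyte to 2-cell embryo (1.94 to -0.07) and Gpi1 from 2-cell to 4-cell embryo (0.17 to -0.40) among others. Of the values of single members followed under the alternatives other than leaving out a library, 292 kept their side of the threshold, 23 fell short of it and 5 newly passed it. From oocyte to 2-cell embryo 3 members passed, against 1 with equal FPKM sums, 1 with quantile normalization, 6 with the compared groups alone and 5 at an unadjusted p under 0.05. Over all genes 1811 passed there, against 1578 with equal FPKM sums and 1501 with quantile normalization. For most other alternatives the number over all genes is not given here, and these numbers of members are no result about the members. From oocyte to 4-cell embryo 11 members passed, against 7 with no filter. In 2-cell Ago2 kd embryos 1 passed, against 0 with the compared groups alone and 2 unadjusted; in 4-cell Ago2 kd embryos 1, against 0 and 5; and for the difference between stages 0, against 1 (Cs) and 2. With 1 library left out the numbers ran from 2 to 4 (oocyte to 2-cell), 4 to 8 (2-cell to 4-cell), 6 to 11 (oocyte to 4-cell), 0 to 1 (2-cell knockdown), 1 to 3 (4-cell knockdown) and 0 to 1 (difference between stages). The cause was not tested. With the replicate block the numbers were 2, 6, 10, 0, 1 and 0, and over all genes the 2-cell knockdown had 23 calls against 48; deviations of same-numbered libraries correlated at -0.093 to 0.092, so the numbers were not taken to pair the samples. Of the genes called in 4-cell Ago2 kd embryos, 30.7% were higher, against 41.2% with libraries scaled to the same median. Dlst fell short from oocyte to 4-cell embryo in each scaling (adjusted p 0.0674, 0.0504 and 0.0606). Summing members with their copies gave 3, 8, 12, 1, 1 and 0 calls, and leaving out the last block of rows left the numbers as they were. Without read numbers, how much depth limits the low genes cannot be given.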
